A study of Mus musculus with 12 samples.

Results

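The RNA levels of 10 genes at the centre of TGF-beta signalling were followed across 4 genotypes of a mouse pancreatic tumour cell line. The genes are the ligands Tgfb1, Tgfb2 and Tgfb3, the receptors Tgfbr1, Tgfbr2 and Tgfbr3, the receptor-activated Smads Smad2 and Smad3, the common Smad Smad4 and the inhibitory Smad Smad7. They were chosen by name, and all 10 were found among the 24493 gene symbols of the expression table. Of the 10, 9 passed the filter on low values (at least 3 libraries with a TPM of 1 or more), as did 13662 of all genes. Tgfbr3 did not pass and is described by its values. TPM, the transcript abundance that the program Salmon reports, is a level corrected for gene length and for the total of the library.

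The line, 6649c2, was grown as subcutaneous tumours, and cells sorted from those tumours were sequenced as 3 libraries for each of WT, EgfrKO, Klf5KO and Smad4KO, 12 libraries in all. All groups share the strain C57BL/6. Which clones or pools carry each knockout, the gate of the sort, the age of the mice and whether the 3 libraries of a group come from separate mice are not stated in the labels. The p-values therefore measure the spread between these libraries, which may be technical. Each comparison against WT uses the same 3 WT libraries, so the 3 comparisons are not independent. The number of reads behind a TPM value cannot be recovered, so low values carry no counting interval.

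TGF-beta ligands are made as latent dimers that stay bound to matrix proteins until they are released. The active ligand binds the type II receptor, which recruits and switches on the type I receptor, and the type I receptor phosphorylates Smad2 and Smad3. These join Smad4 and enter the nucleus, where the complex turns on target genes including Smad7, whose product blocks the receptor. In pancreatic ductal cancer the pathway is known for restraining epithelial growth early and for favouring mesenchymal change later, and SMAD4 is often lost in the human disease.

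The 250 bases before an annotated start are shown for a ligand and a Smad that were lower in EgfrKO and in Smad4KO, Tgfb1 and Smad3, and for the 2 receptors that went opposite ways in Smad4KO, Tgfbr1 and Tgfbr2. The sequences are from RefSeq, build GRCm38.p6, each 5′ to 3′ on the strand of its gene. Capitals mark GGGCGG (the GC box) and CAGAC (a Smad-binding element) on either strand.
Tgfb1, chr7:25686752-25687001, plus strand: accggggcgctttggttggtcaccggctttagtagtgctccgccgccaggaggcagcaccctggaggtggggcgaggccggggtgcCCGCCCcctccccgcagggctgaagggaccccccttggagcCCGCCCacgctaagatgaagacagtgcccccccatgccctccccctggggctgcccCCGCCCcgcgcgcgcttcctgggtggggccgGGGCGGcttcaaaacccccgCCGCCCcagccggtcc
Smad3, chr9:63757995-63758244, minus strand: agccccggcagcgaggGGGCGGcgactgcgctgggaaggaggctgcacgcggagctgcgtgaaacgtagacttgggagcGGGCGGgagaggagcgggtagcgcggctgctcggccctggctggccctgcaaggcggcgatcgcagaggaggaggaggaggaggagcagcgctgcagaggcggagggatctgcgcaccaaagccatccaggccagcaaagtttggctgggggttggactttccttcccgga
Tgfbr1, chr4:47352972-47353221, plus strand: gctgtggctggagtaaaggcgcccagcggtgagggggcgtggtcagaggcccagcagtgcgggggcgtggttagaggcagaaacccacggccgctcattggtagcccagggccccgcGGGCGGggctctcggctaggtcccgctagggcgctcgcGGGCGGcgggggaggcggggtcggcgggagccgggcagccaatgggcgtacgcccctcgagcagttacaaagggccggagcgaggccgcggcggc
Tgfbr2, chr9:116175364-116175613, minus strand: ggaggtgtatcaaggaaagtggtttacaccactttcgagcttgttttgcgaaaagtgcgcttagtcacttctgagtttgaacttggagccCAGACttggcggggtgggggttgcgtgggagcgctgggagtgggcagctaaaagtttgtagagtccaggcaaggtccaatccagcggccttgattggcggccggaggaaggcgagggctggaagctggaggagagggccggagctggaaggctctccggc

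The window of Tgfb1 held 5 matches to GGGCGG and that of Smad3 held 2. The window of Tgfbr1 held 2, and that of Tgfbr2 held none and 1 match to CAGAC, which the other 3 windows shown lacked. The table has a second start for Tgfbr1, with a window at chr4:47385966-47386215 that held 0 matches to GGGCGG and 1 to CAGAC, so the difference between the receptors rests on the start shown. Over all 32851 promoter windows of the table searched in the same length and on both strands, 32.7% held GGGCGG and 42.2% held CAGAC. The GC content was 75.2% for Tgfb1, 69.2% for Smad3, 74.8% for Tgfbr1 and 58.4% for Tgfbr2. Of the 10 genes, 5 had an entry in this table: the 4 shown and Tgfb2. These matches describe the letters of the windows.

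In the RefSeq annotation of GRCm38.p6, Tgfb1 lies at chr7:25687002-25705077, Tgfb2 at chr1:186622787-186709697 and Tgfb3 at chr12:86056743-86079041. Tgfbr1 lies at chr4:47353222-47414926, Tgfbr2 at chr9:116087695-116175363 and Tgfbr3 at chr5:107106567-107289629. Smad3 lies at chr9:63646766-63757994, and the other 3 Smads lie on chromosome 18, Smad4 at 73634790-73703791, Smad7 at 75367365-75395935 and Smad2 at 76241090-76311748. The level of a gene covers all its annotated transcripts.

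The targeted genes were read first as a check of the labels. Egfr, the receptor of epidermal growth factor, was at 12.3, 14.0 and 13.1 TPM in WT and at 5.16, 3.77 and 3.94 TPM in EgfrKO, without overlap. Egfr was also below every WT library in Klf5KO (mean 6.93 TPM) and in Smad4KO (mean 7.95 TPM). The EgfrKO libraries were the lowest of all, with the nearest Klf5KO library at 5.45 TPM. An Egfr level below WT is therefore not specific to the EgfrKO label. Smad4 was at 70.9, 75.7 and 79.8 TPM in WT and at 29.8, 33.4 and 28.9 TPM in Smad4KO, also without overlap. The two-sided exact permutation p was 0.1 for each, the smallest that 3 against 3 libraries allow. Klf5, a transcription factor of epithelial cells, was at 97.1, 109 and 130 TPM in WT and at 100, 87.8 and 93.2 TPM in the libraries labelled Klf5KO. These groups overlapped in deposited TPM (exact permutation p = 0.2), so the deposited level of Klf5 does not check that label. In EgfrKO Klf5 was at 82.5, 89.0 and 83.2 TPM, below all WT libraries. Every direction given for Klf5KO is for the libraries labelled so.

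**Figure D1:**
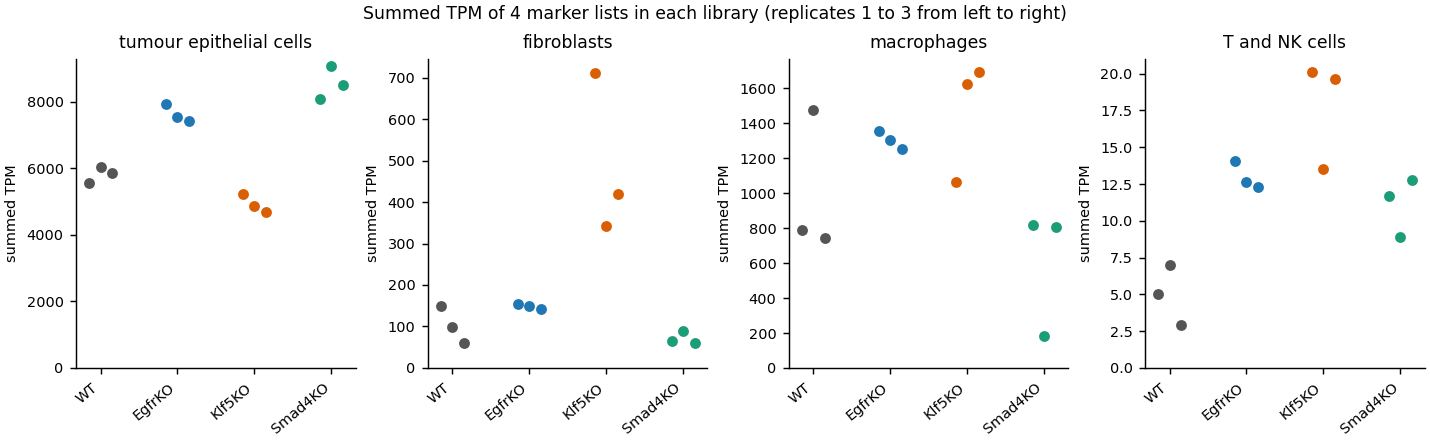
Summed TPM of the markers of tumour epithelial cells, fibroblasts, macrophages, and T and NK cells in each of the 12 libraries (vertical axis, TPM from 0; 1 point a library, replicates 1 to 3 from left to right in each genotype). The fibroblast sums of the 3 Klf5KO libraries, from 342 to 712, lie above those of all other libraries, and Smad4KO replicate 2 has the lowest macrophage sum, 184.

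The sorted cells carried the markers of tumour epithelium at high level and RNA of other cell types at lower level. The 9 epithelial markers, led by Krt8 and Krt18, summed to 5566 to 6044 TPM in WT, 7436 to 7946 in EgfrKO, 4701 to 5232 in Klf5KO and 8099 to 9069 in Smad4KO. The 10 fibroblast markers, led by Col1a1 and Col1a2, summed to 59.4 to 150 TPM in WT, 143 to 154 in EgfrKO, 342 to 712 in Klf5KO and 61.1 to 90.2 in Smad4KO. The 10 macrophage markers, led by Lyz2 and C1qa, summed to 741 to 1478 TPM in WT, 1253 to 1355 in EgfrKO, 1062 to 1692 in Klf5KO and 184 to 816 in Smad4KO. WT replicate 2 and Smad4KO replicate 2 stood apart from their groups in this sum, at 1478 and 184 TPM. No marker of any list was at 0 in every library; the fibroblast marker Fap, the NK cell marker Klrb1c and the endothelial markers Kdr, Tek and Emcn were under 1 TPM in every library. Sums of 8 leukocyte markers (led by Tyrobp and Laptm5) ran from 71.8 to 389 TPM over all libraries, and those of 6 neutrophil markers (Retnlg, S100a8) from 12.9 to 25.5. T and NK cell markers (Cd3d, Nkg7) summed to 2.90 to 20.1 TPM and endothelial markers (Cdh5, Esam) to 5.03 to 21.8. In these bulk samples fewer cells of a type and less RNA per cell cannot be told apart.

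In WT cells Tgfb1 was the ligand with the highest level, Smad3 and Smad4 the Smads with the highest levels, and Tgfbr1 the receptor with the highest level. Tgfb1 made up 93.0% ± 1.04 (SD, n = 3) of the summed TPM of the 3 ligands in WT, Tgfb3 6.09% ± 0.90 and Tgfb2 0.95% ± 0.25. Of the 3 receptors, Tgfbr1 made up 57.2% ± 1.65, Tgfbr2 41.7% ± 1.78 and Tgfbr3 1.04% ± 0.17. Of the 4 Smads, Smad3 made up 36.9% ± 1.27, Smad4 31.2% ± 0.39, Smad7 25.3% ± 0.81 and Smad2 6.70% ± 0.083.

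**Figure D2:**
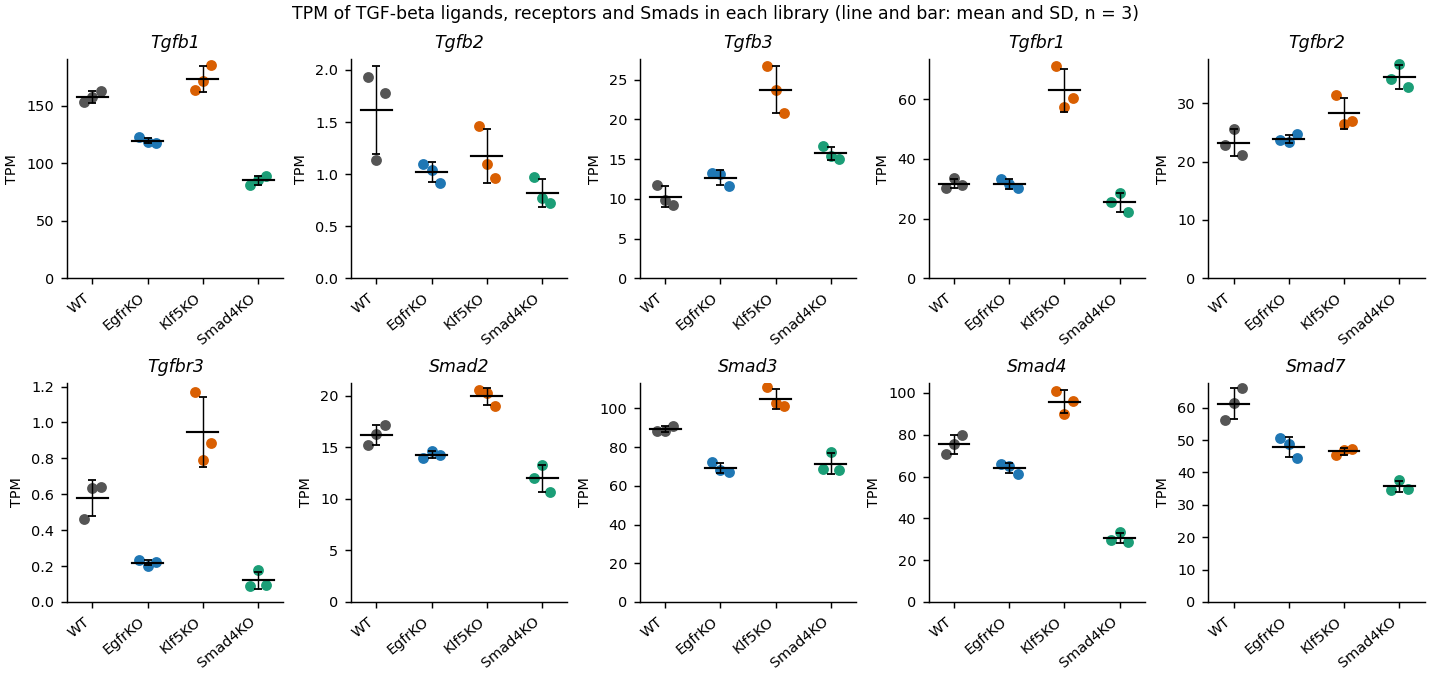
Level of each of the 10 genes (vertical axes, TPM from 0, a separate scale for each gene) in the 3 libraries of WT, EgfrKO, Klf5KO and Smad4KO; points are libraries, the long line is the mean and the bar the SD. Tgfb1 and Smad4 are lowest in Smad4KO, at means of 85.0 and 30.7 TPM, and Tgfb3 and Tgfbr1 highest in Klf5KO, at 23.7 and 63.0 TPM.

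Tgfb1, the ligand made by most cell types, was lower in EgfrKO and still lower in Smad4KO. Its level was 153, 157 and 163 TPM in WT, 122, 119 and 118 in EgfrKO, 163, 172 and 185 in Klf5KO, and 81.4, 85.1 and 88.5 in Smad4KO. The EgfrKO and Smad4KO libraries all lay below WT and did not overlap with each other. Fold changes here are differences of log2(TPM + 1) from 1 limma fit over all 13662 genes, with p-values adjusted by Benjamini-Hochberg, and they understate the change of genes at low level. Tgfb1 fell by 0.39 ± 0.053 (SE) in EgfrKO (limma adjusted p = 0.000146) and by 0.88 ± 0.053 in Smad4KO (adjusted p = 1.48e-07), to 75.9% and 54.0% of the WT mean. Between those knockouts the difference was -0.49 ± 0.053 (adjusted p = 3.73e-05). In Klf5KO the change was 0.14 ± 0.053 (adjusted p = 0.040). That call turned round when the libraries were scaled by median-of-ratios, at -0.22 (adjusted p = 0.0231), and 4 libraries each decide it: the adjusted p was 0.124 when WT replicate 1 was left out, 0.0852 for WT replicate 2, 0.0623 for Klf5KO replicate 2 and 0.174 for Klf5KO replicate 3.

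Median-of-ratios scaling divides each library by the median, over genes, of its ratio to the geometric mean of all libraries. It matters here because the median log2 fold change over all tested genes against WT was 0.14 in EgfrKO, 0.31 in Klf5KO and 0.10 in Smad4KO as deposited, and 0.00, -0.01 and 0.00 after the scaling. A deposited change is therefore read beside these medians as well as beside 0. A change below the median can still miss the threshold after scaling, as did Tgfbr2 in Klf5KO (-0.07, limma adjusted p = 0.427). The check of Klf5 above used deposited TPM only. The scaling divides the WT libraries by 0.90, 0.92 and 0.88 and the Klf5KO libraries by 1.21, 1.12 and 1.13, which lowers Klf5 in Klf5KO relative to WT.

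Tgfb3, a ligand typical of mesenchymal and developing tissue, was higher in Klf5KO and in Smad4KO. Its level was 11.8, 9.87 and 9.25 TPM in WT, 13.3, 13.1 and 11.6 in EgfrKO, 26.7, 23.7 and 20.8 in Klf5KO, and 16.7, 15.4 and 15.03 in Smad4KO. Each Klf5KO library exceeded every other library, and each Smad4KO library exceeded all of WT and EgfrKO. The change was 1.13 ± 0.11 in Klf5KO (limma adjusted p = 4.79e-06; 2.30 times the WT mean) and 0.57 ± 0.11 in Smad4KO (adjusted p = 0.000896; 1.53 times). Both held after scaling, at 0.79 and 0.47. In EgfrKO the change was 0.28 ± 0.11 and missed the threshold (adjusted p = 0.052); it passed without WT replicate 1 (0.0196) or EgfrKO replicate 3 (0.0402) and was 0.14 after scaling (adjusted p = 0.24). Smad4KO and EgfrKO, neighbours in the order of levels, differed by 0.29 ± 0.11 (adjusted p = 0.0536).

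Tgfb2 was near the lower limit of the test. Its level was 1.93, 1.14 and 1.78 TPM in WT, 1.10, 1.04 and 0.92 in EgfrKO, 1.46, 1.10 and 0.96 in Klf5KO, and 0.98, 0.77 and 0.72 in Smad4KO. All Smad4KO libraries lay below all WT libraries, while Klf5KO overlapped with WT. Tgfb2 fell by 0.51 ± 0.15 in Smad4KO (limma adjusted p = 0.0139), which missed the threshold if WT replicate 1 (0.0583) or WT replicate 3 (0.0527) was left out. The change was -0.36 in EgfrKO (adjusted p = 0.0697) and -0.26 in Klf5KO (adjusted p = 0.143); after scaling both passed, at -0.46 (adjusted p = 0.0252) and -0.47 (adjusted p = 0.0178). Without WT replicate 2, the lowest of the WT libraries, they were -0.50 (0.0215) and -0.40 (0.0343) and passed too.

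The summed TPM of the ligands was 169 ± 3.78 in WT, 133 ± 3.30 in EgfrKO, 198 ± 7.97 in Klf5KO and 102 ± 2.59 in Smad4KO (mean ± SD, n = 3). The share of Tgfb3 in that sum was 9.50% in EgfrKO, 12.03% in Klf5KO and 15.5% in Smad4KO, beside 6.09% in WT. As a ratio within each library, which no scaling of libraries can move, log2 Tgfb3 to Tgfb1 was -3.94 ± 0.22 in WT, -3.24 ± 0.091 in EgfrKO, -2.87 ± 0.27 in Klf5KO and -2.44 ± 0.14 in Smad4KO. In none of the 3 knockouts did this ratio overlap with WT, with an exact permutation p of 0.1 each, the smallest possible, and 0.164 adjusted over the 18 ratio comparisons. Of these 18 comparisons 11 were without overlap, and the share over other pairs of genes was not computed. The ratio of Tgfb2 to Tgfb1 overlapped with WT in all 3.

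Tgfbr1, the type I receptor kinase that phosphorylates Smad2 and Smad3, was raised in Klf5KO. Its level was 30.4, 33.5 and 31.4 TPM in WT, 33.2, 31.5 and 30.1 in EgfrKO, 71.0, 57.4 and 60.5 in Klf5KO, and 25.6, 28.6 and 22.3 in Smad4KO. The Klf5KO libraries stood above all others, WT and EgfrKO interleaved, and Smad4KO lay below both. The change was 0.96 ± 0.096 in Klf5KO (limma adjusted p = 7.19e-06; 1.98 times the WT mean) and 0.61 after scaling (adjusted p = 3.35e-05). In EgfrKO it was -0.01 ± 0.096 (adjusted p = 0.957). Tgfbr1 fell by 0.31 ± 0.096 in Smad4KO (adjusted p = 0.0176), a call that leaving out WT replicate 2 (0.063) or Smad4KO replicate 3 (0.0723) removed, as did the fibroblast list as a covariate (-0.23, adjusted p = 0.0715).

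Tgfbr2, the type II receptor that binds the ligand first, was highest in Smad4KO. Its level was 22.9, 25.6 and 21.1 TPM in WT, 23.7, 23.3 and 24.7 in EgfrKO, 31.4, 26.4 and 27.0 in Klf5KO, and 34.1, 36.8 and 32.7 in Smad4KO. EgfrKO lay inside the WT range, Klf5KO just above it, and Smad4KO above all other libraries. The change was 0.56 ± 0.084 in Smad4KO (limma adjusted p = 0.000201; 1.49 times the WT mean) and 0.45 after scaling (adjusted p = 0.00029). In Klf5KO it was 0.27 ± 0.084 (adjusted p = 0.013), a call that leaving out WT replicate 3 (0.0589) or Klf5KO replicate 1 (0.0563) removed, and -0.07 after scaling (adjusted p = 0.427). In EgfrKO it was 0.04 ± 0.084 (adjusted p = 0.701).

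Tgfbr3, betaglycan, a co-receptor that presents ligand to the type II receptor, was at or below 1.17 TPM in every library. It was listed at 0.46, 0.63 and 0.64 TPM in WT, 0.23, 0.20 and 0.22 in EgfrKO, 1.17, 0.79 and 0.89 in Klf5KO, and 0.090, 0.18 and 0.10 in Smad4KO. The 4 groups did not overlap. In a fit with no filter on low values the change was -0.37 in EgfrKO (limma adjusted p = 0.00452), 0.30 in Klf5KO (0.00736) and -0.49 in Smad4KO (0.000542). At these levels the read depth behind each value is unknown.

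The balance of the receptors in Klf5KO and Smad4KO lay outside the WT libraries, in opposite directions. Tgfbr1 made up 57.2% of the summed receptor TPM in WT, 56.7% in EgfrKO, 68.3% in Klf5KO and 42.3% in Smad4KO, and Tgfbr2 41.7%, 42.9%, 30.7% and 57.5%. The log2 ratio of Tgfbr2 to Tgfbr1 was -0.46 ± 0.10 in WT, -0.40 ± 0.10 in EgfrKO, -1.15 ± 0.030 in Klf5KO and 0.45 ± 0.099 in Smad4KO. It overlapped with WT in EgfrKO (exact permutation p = 0.6) and not in Klf5KO or Smad4KO (exact p = 0.1 each, adjusted 0.164). The log2 ratio of Tgfbr3 to Tgfbr2 was lower than in WT, without overlap, in EgfrKO (by 1.43 at -6.76 against -5.33) and in Smad4KO (-8.22), and overlapped with WT in Klf5KO (-4.91).

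**Figure D3:**
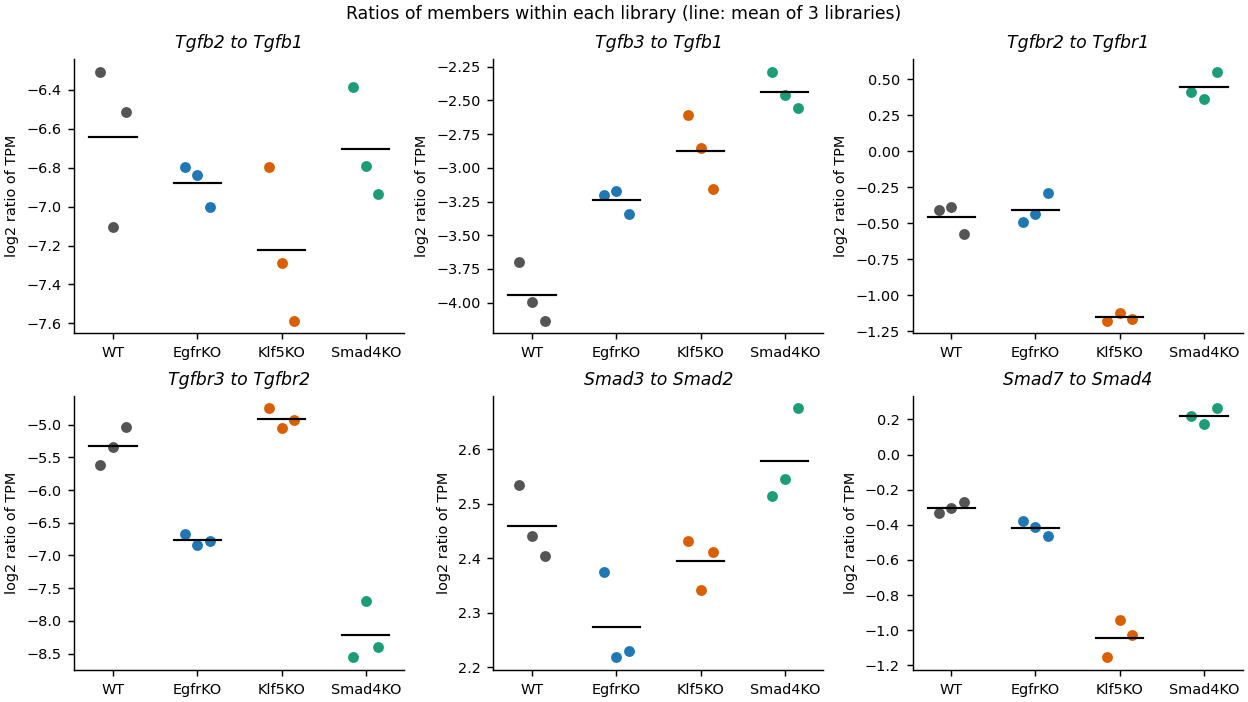
Log2 ratio of the TPM of pairs of the genes within each library (vertical axes, a separate scale for each pair) for WT, EgfrKO, Klf5KO and Smad4KO; points are libraries and lines are means of 3. Tgfb3 to Tgfb1 is above WT in the 3 knockouts, and Tgfbr2 to Tgfbr1 is below WT in Klf5KO (-1.15) and above 0 in Smad4KO (0.45).

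Smad2 and Smad3, which the type I receptor phosphorylates, were lower in Smad4KO, and Smad3 was lower in EgfrKO. Smad3 was at 88.3, 88.2 and 90.9 TPM in WT, 72.2, 68.1 and 67.0 in EgfrKO, 111, 102 and 101 in Klf5KO, and 68.4, 77.7 and 68.0 in Smad4KO. All EgfrKO and Smad4KO libraries lay below WT and all Klf5KO libraries above it. Smad3 fell by 0.36 ± 0.060 in EgfrKO (limma adjusted p = 0.000596) and by 0.32 ± 0.060 in Smad4KO (adjusted p = 0.000932); these knockouts differed from each other by 0.04 ± 0.060 (adjusted p = 0.609). In Klf5KO the change was 0.23 (adjusted p = 0.005), and it turned to -0.12 (adjusted p = 0.0414) after scaling.

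Smad2 was at 15.2, 16.2 and 17.2 TPM in WT, 13.9, 14.6 and 14.3 in EgfrKO, 20.6, 20.2 and 19.0 in Klf5KO, and 11.98, 13.3 and 10.6 in Smad4KO. The 4 groups did not overlap. Smad2 fell by 0.41 ± 0.081 in Smad4KO (limma adjusted p = 0.00129). The change in EgfrKO was -0.17 ± 0.081 (adjusted p = 0.107) as deposited and -0.32 after scaling, where it passed (adjusted p = 0.00533). In Klf5KO it was 0.28 ± 0.081 (adjusted p = 0.0088) as deposited and -0.06 after scaling (adjusted p = 0.539).

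Smad4, the partner of Smad2 and Smad3, was left in Smad4KO at 40.7% of its WT mean. It was at 65.8, 64.9 and 61.3 TPM in EgfrKO and at 101, 90.1 and 96.1 in Klf5KO, below and above the WT libraries given above. In Smad4KO it fell by 1.27 ± 0.068 (limma adjusted p = 6.9e-08). In EgfrKO it fell by 0.23 ± 0.068 (adjusted p = 0.0166), no longer past the threshold if WT replicate 3 (0.0697) or EgfrKO replicate 3 (0.0555) was left out, and by 0.38 after scaling (adjusted p = 0.00025). In Klf5KO the change was 0.34 ± 0.068 (adjusted p = 0.00095) as deposited and -0.01 after scaling (adjusted p = 0.844).

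Smad7, the inhibitor that the pathway itself switches on, was lower in all 3 knockouts. It was at 56.3, 61.4 and 66.0 TPM in WT, 50.6, 48.8 and 44.5 in EgfrKO, 45.4, 47.0 and 47.1 in Klf5KO, and 34.7, 37.7 and 34.7 in Smad4KO. All 9 knockout libraries lay below all 3 WT libraries, EgfrKO and Klf5KO interleaved, and Smad4KO was lowest. Smad7 fell by 0.35 ± 0.068 in EgfrKO (limma adjusted p = 0.00191), by 0.39 ± 0.068 in Klf5KO (adjusted p = 0.000388) and by 0.76 ± 0.068 in Smad4KO (adjusted p = 3.29e-06). After scaling the falls were 0.50, 0.74 and 0.87, all past the threshold. EgfrKO and Klf5KO differed by 0.04 (adjusted p = 0.622) as deposited, with Klf5KO the lower, and by 0.24 after scaling (adjusted p = 0.00868). The log2 ratio of Smad7 to Smad4 was -0.30 ± 0.030 in WT, -0.42 ± 0.041 in EgfrKO, -1.04 ± 0.11 in Klf5KO and 0.22 ± 0.045 in Smad4KO, without overlap with WT in any (exact permutation p = 0.1 each, adjusted 0.164).

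**Figure D4:**
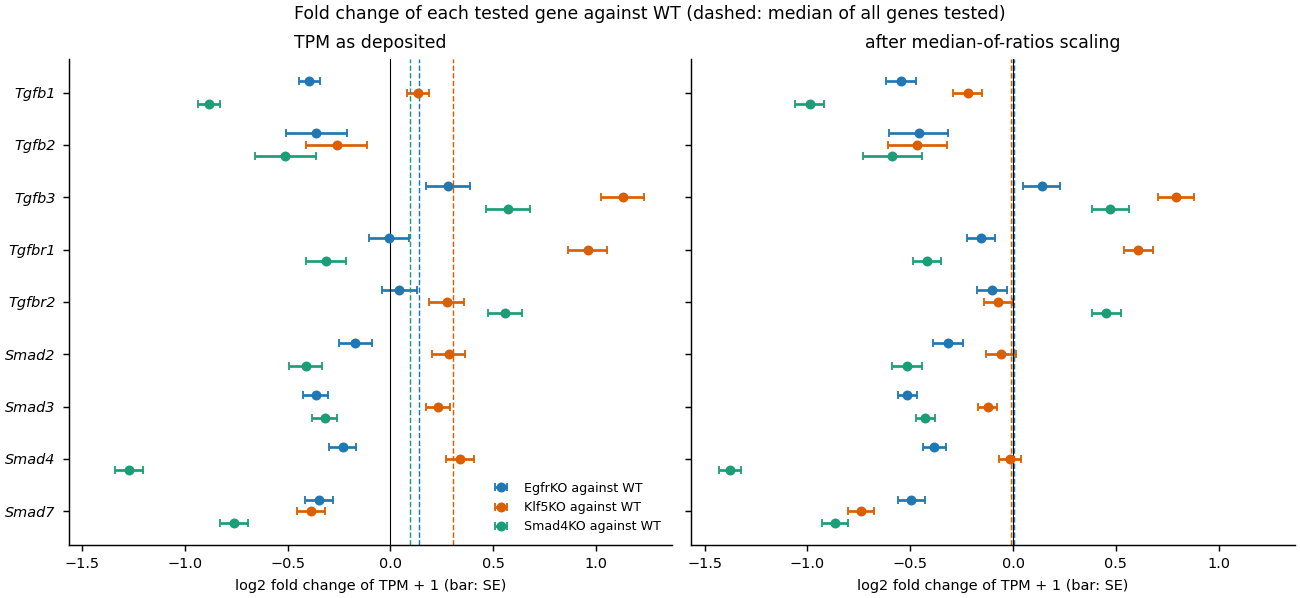
Log2 fold change of TPM + 1 against WT (horizontal axis, points with SE) of the 9 tested genes in EgfrKO, Klf5KO and Smad4KO, from TPM as deposited (left) and after median-of-ratios scaling (right); dashed lines are the medians of all 13662 genes. Tgfb3 and Tgfbr1 in Klf5KO and Tgfb3 and Tgfbr2 in Smad4KO are above 0 on both sides, and Smad7 is below 0 in all 3 knockouts on both.

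Counted over the 9 tested genes, EgfrKO had 0 higher and 4 lower than WT, where 31.3% of all tested genes were called higher and 12% lower. The 4 are Tgfb1, Smad3, Smad4 and Smad7. After scaling 0 were higher and 6 lower, against 18.0% and 22.2% of all genes. The median change of the 9 was -0.23, beside 0.14 for all genes. Neither Tgfbr1 nor Tgfbr2 passed the test in EgfrKO. Beside these counts, 5 of 8 tested T and NK cell markers and 3 of 4 tested endothelial markers were higher in EgfrKO, 4 of 8 epithelial markers were higher and 2 lower, and of 5 neutrophil markers 1 was higher and 2 lower. Of 8 leukocyte markers 3 were higher and 1 lower, and of 9 tested fibroblast markers 2 were higher and 1 lower. Of the macrophage markers 0 of 10 passed the test by limma in EgfrKO and in Klf5KO. With a macrophage or a fibroblast covariate the same 4 members were lower. Over all genes these fits called 4107 higher and 1464 lower, and 3160 and 1503, beside 4277 and 1643 as deposited. The other marker lists were not used as covariates. The part of these cell types in the EgfrKO result was not tested.

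In Klf5KO 7 of the 9 were higher and 1, Smad7, lower, where 55.2% of all genes were higher and 11.1% lower. The count of higher members is read against that large background. After scaling 2 were higher (Tgfb3 and Tgfbr1) and 4 lower (Tgfb1, Tgfb2, Smad3 and Smad7), against 24.6% and 27.5% of all genes. The median change of the 9 was 0.27 beside 0.31 for all genes, and -0.07 beside -0.01 after scaling.

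The fibroblast markers also changed in Klf5KO: 9 of 9 tested were higher than in WT as deposited and 6 after scaling. Over all genes 55.2% and 24.6% were higher. Klf5KO replicate 1 had the highest fibroblast sum, 712 TPM, and also the highest Tgfb3 (26.7) and Tgfbr1 (71.0) of all libraries. Klf5KO replicate 2 had a sum of 342, with Tgfb3 at 23.7 and Tgfbr1 at 57.4. Klf5KO replicate 3 had a sum of 420, with Tgfb3 at 20.8 and Tgfbr1 at 60.5. Within Klf5KO the order of Tgfbr1 matched that of the sums and the order of Tgfb3 did not, which 3 libraries are too few to read as a difference between these genes. Over all 12 libraries the Pearson correlation with the mean of the fibroblast list was 0.944 for Tgfbr1 and 0.722 for Tgfb3. With the epithelial list it was -0.926 and -0.539. These values are a description, as the libraries fall into 4 genotypes. Without Klf5KO replicate 1 the changes against WT were 1.05 for Tgfb3 (limma adjusted p = 2.62e-05) and 0.87 for Tgfbr1 (adjusted p = 3.22e-05). With the mean of the fibroblast list as a covariate, 0 of the 9 members were called higher and 0 lower in Klf5KO. Calls were lost over all genes too: 820 were higher and 331 lower with the covariate, beside 7536 and 1518 as deposited. Tgfb3 was at 0.65 with the covariate (adjusted p = 0.0847), Tgfbr1 at 0.59 (0.104) and Smad7 at -0.21 (0.417). All fibroblast sums of Klf5KO lie above those of WT, so the list and the label cannot be told apart in that fit. Of the 8 tested leukocyte markers 7 were also higher in Klf5KO as deposited and 1 after scaling, and of the 8 tested epithelial markers 6 were lower and 1 higher. Of the T and NK cell markers 5 of 8 were higher as deposited, which is near the share over all genes, and 5 after scaling. Endothelial markers (3 of 4) were higher on both scales, and of 5 neutrophil markers 1 was higher and 2 lower. Their part in the result was not tested.

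In Smad4KO 2 of the 9 were higher (Tgfb3 and Tgfbr2) and 7 lower, where 32.2% of all genes were higher and 17.4% lower. After scaling the counts were again 2 and 7, against 25.1% and 24.7% of all genes. The median change of the 9 was -0.41 beside 0.10 for all genes. Smad4 itself, the targeted gene, is 1 of the 7. Of the epithelial markers 7 of 8 tested were higher in Smad4KO and 1 lower. Lower there were 2 of 10 macrophage, 3 of 8 leukocyte and 2 of 9 fibroblast markers, while 3 of 8 T and NK cell markers, 1 of 5 neutrophil markers and 0 of 4 endothelial markers were higher by limma. Smad4KO replicate 2, with a macrophage sum of 184 TPM, had a Tgfb1 level of 85.1, between those of the other Smad4KO libraries at 81.4 and 88.5. Without WT replicate 2 and Smad4KO replicate 2, the libraries that stand apart in macrophage markers, the counts were again 2 and 7. Tgfb1 was then at -0.89 (limma adjusted p = 1.27e-05) and Tgfbr2 at 0.58 (adjusted p = 0.00079). This alternative was chosen after seeing the data. The part of these cell types in the Smad4KO result was not tested.

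The knockouts also differed among themselves. Klf5KO against EgfrKO had 7 higher and 0 lower of 9, where 40.5% and 14.7% of all genes were called (limma). After scaling 6 were higher and 1 lower, against 25.3% and 26.4% of all genes. Of the epithelial markers 6 of 8 tested were lower and 1 higher in the same comparison. Higher there were 2 of 4 endothelial, 1 of 8 leukocyte and 1 of 8 T and NK cell markers. Of the fibroblast markers 6 of 9 were higher. With that list as a covariate 4 members were higher, without Tgfb3 (adjusted p = 0.0708), Smad2 (0.0872) and Tgfbr2 (0.814). Over all genes the covariate left 1567 higher and 863 lower, beside 5528 and 2007 as deposited. Smad4KO against EgfrKO had 1 higher, Tgfbr2 (0.51, adjusted p = 0.000742), and 5 lower, where 14.5% and 18.7% of all genes were called; after scaling 2 were higher and 4 lower, against 19.6% and 16.5%. The 5 became 3 when EgfrKO replicate 1 or 2 or Smad4KO replicate 1 or 3 was left out. They also became 3 with the fibroblast covariate, which together with 6 other alternatives gave 2 higher. With that covariate 1359 of all genes were lower, beside 2554 as deposited. Lower in this comparison were 7 of 8 leukocyte, 6 of 9 fibroblast, 5 of 10 macrophage and 3 of 4 endothelial markers. Of the 8 tested epithelial markers 5 were higher and 1 lower. Smad4KO against Klf5KO had 1 higher, again Tgfbr2 (0.28, adjusted p = 0.0113), and 7 lower, where 18.3% and 45.5% of all genes were called; after scaling 1 was higher and 6 lower, against 31.2% and 29.1%. All 9 tested fibroblast, all 8 leukocyte, 7 of 10 macrophage and all 4 tested endothelial markers were lower here, and 7 of 8 epithelial markers higher. With the fibroblast covariate 3 members were lower. Over all genes it left 1001 higher and 1118 lower here, beside 2506 and 6210 as deposited. With the macrophage covariate Tgfbr2 missed the threshold (0.24, adjusted p = 0.0969), which left 0 members higher. The fibroblast sums did not overlap: 143 to 154 TPM in EgfrKO, 342 to 712 in Klf5KO and 61.1 to 90.2 in Smad4KO. The macrophage sums of Smad4KO, 184 to 816, lay below those of Klf5KO, 1062 to 1692. In these fits the list and the label therefore cannot be told apart. The part of these cell types in the differences between knockouts was not tested. In Smad4KO against Klf5KO the difference was -1.61 for Smad4, -1.27 for Tgfbr1 and -1.02 for Tgfb1.

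The other genes of the pathway were read as 5 lists. Of 14 genes that store or release the latent ligand, 13 were tested: 1 was higher and 5 lower in EgfrKO, 11 higher and 0 lower in Klf5KO, and 1 higher and 7 lower in Smad4KO. After scaling these were 1 and 6, 5 and 1, and 1 and 8. Over all genes 31.3% were higher and 12% lower in EgfrKO, 55.2% and 11.1% in Klf5KO, and 32.2% and 17.4% in Smad4KO, as deposited. After scaling these shares were 18.0% and 22.2%, 24.6% and 27.5%, and 25.1% and 24.7%. The counts of all 5 lists are read against these shares, as deposited or after scaling. Thbs1, thrombospondin 1, which can activate latent ligand, was at 57.4 ± 6.08 TPM in WT, 18.9 ± 0.17 in EgfrKO, 112 ± 13.8 in Klf5KO and 21.0 ± 1.93 in Smad4KO, with log2 changes of -1.55, 0.95 and -1.41 (limma adjusted p = 1.07e-06, 1.03e-05 and 5.7e-07). Ltbp3, a latent ligand binding protein at 284 ± 12.9 TPM in WT, was at 212 ± 15.7 in EgfrKO (adjusted p = 0.000416) and 172 ± 4.02 in Smad4KO (adjusted p = 4.21e-06). Its relative Ltbp2 fell by 1.02 in EgfrKO and by 1.61 in Smad4KO, from 8.09 ± 1.26 TPM in WT, and its change in Klf5KO was 0.01 (adjusted p = 0.944). The list's median change was 0.05, 0.49 and -0.43 in EgfrKO, Klf5KO and Smad4KO, beside 0.14, 0.31 and 0.10 for all genes.

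Of 13 partners of the receptors, 12 were tested: 4 were higher and 5 lower in EgfrKO, 7 and 1 in Klf5KO, and 1 and 6 in Smad4KO (after scaling 3 and 5, 6 and 3, and 1 and 7). The counts higher in EgfrKO and Klf5KO as deposited are near the shares over all genes, 31.3% and 55.2%. After scaling, the 3 lower in Klf5KO are near the 27.5% of all genes. Cav1, caveolin 1, which takes part in receptor uptake, fell in all 3 knockouts, from 168 ± 16.1 TPM in WT to 63.7 ± 3.88, 82.1 ± 8.23 and 79.9 ± 7.71, with changes of -1.39, -1.03 and -1.07 (limma adjusted p = 1.29e-06, 4.15e-06 and 3.07e-06). Nrp1, neuropilin 1, a co-receptor, was at 20.5 ± 2.04 TPM in WT and 47.8 ± 5.80 in Klf5KO (1.18, adjusted p = 1.48e-06). Usp4, a deubiquitinase that stabilises the type I receptor, was higher in Klf5KO (0.69, adjusted p = 2.9e-06) and in Smad4KO (0.34, adjusted p = 0.000659); the 0.26 in EgfrKO (adjusted p = 0.0053) was 0.11 after scaling (adjusted p = 0.0801). The median change of the list was 0.11, 0.50 and -0.28, beside 0.14, 0.31 and 0.10.

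Of 17 Smad partners and regulators, 16 were tested: 0 were higher and 6 lower in EgfrKO, 11 and 0 in Klf5KO, and 1 and 7 in Smad4KO (after scaling 0 and 10, 4 and 5, and 1 and 7). Over all genes as deposited 12%, 11.1% and 17.4% were lower in the 3 knockouts, and 55.2% higher in Klf5KO. After scaling 22.2%, 27.5% and 24.7% were lower, and 24.6% higher in Klf5KO. Both scaled counts in Klf5KO are near these shares. Ski, a repressor of Smad complexes, was at 74.6 ± 3.79 TPM in WT and 49.0 ± 1.70 in Smad4KO (-0.60, limma adjusted p = 8.23e-06). Pmepa1, a target gene whose product holds back Smad2 and Smad3, was at 116 ± 4.70 TPM in WT and 75.3 ± 4.81 in Smad4KO (-0.61, adjusted p = 7.97e-06). Its relative Ldlrad4 was higher in Klf5KO (0.61, adjusted p = 1.26e-05) and lower in Smad4KO (-0.21, adjusted p = 0.0211). The list had median changes of -0.13, 0.31 and -0.10, of which that in Klf5KO equals the all-gene median of 0.31; those of all genes in EgfrKO and Smad4KO were 0.14 and 0.10.

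Of 15 genes of the activin branch and other Smads, 10 were tested: 2 were higher and 4 lower in EgfrKO, 8 and 0 in Klf5KO, and 2 and 4 in Smad4KO (after scaling 2 and 5, 4 and 1, and 1 and 5). The shares higher over all genes were 31.3%, 55.2% and 32.2% as deposited, and those lower 12%, 11.1% and 17.4%. After scaling 18.0%, 24.6% and 25.1% were higher, and 22.2%, 27.5% and 24.7% lower. Inhba, the subunit of activin A, was at 84.1 ± 10.1 TPM in WT, 21.9 ± 1.40 in EgfrKO, 133 ± 2.40 in Klf5KO and 24.9 ± 1.70 in Smad4KO, with changes of -1.89, 0.66 and -1.71 (limma adjusted p = 1.65e-07, 3.13e-05 and 3.36e-08). Its antagonist Fst, follistatin, was lower in EgfrKO (-0.36, adjusted p = 0.0418) and Smad4KO (-0.61, adjusted p = 0.00242) and higher in Klf5KO (1.41, adjusted p = 4.34e-06). The related Fstl3 fell by 0.90 in Smad4KO (adjusted p = 5.62e-06) and was at -0.04 in EgfrKO (adjusted p = 0.748). Over the list the medians were -0.10, 0.47 and -0.12, beside 0.14, 0.31 and 0.10 for all genes.

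Of 23 known target genes, 22 were tested: 1 was higher and 14 lower in EgfrKO, 10 and 9 in Klf5KO, and 2 and 19 in Smad4KO (after scaling 1 and 15, 7 and 11, and 1 and 19). Of all genes 12%, 11.1% and 17.4% were lower as deposited, and 31.3%, 55.2% and 32.2% higher. After scaling the shares were 22.2%, 27.5% and 24.7% lower, and 18.0%, 24.6% and 25.1% higher. Lmcd1, a LIM-domain protein, was at 28.8 ± 4.41 TPM in WT, 4.67 ± 0.90 in EgfrKO, 14.7 ± 2.65 in Klf5KO and 2.05 ± 0.49 in Smad4KO, with changes of -2.39, -0.93 and -3.29 (limma adjusted p = 1.5e-06, 0.000487 and 5.11e-08). Has2, a hyaluronan synthase, fell by 1.97 in EgfrKO, 0.41 in Klf5KO and 2.20 in Smad4KO (adjusted p = 2.22e-06, 0.0277 and 3.33e-07). Tgm2, transglutaminase 2, was higher in all 3 knockouts. It rose from 153 ± 15.2 TPM in WT to 320.0 ± 15.5, 414 ± 33.1 and 444 ± 14.8, with changes of 1.06, 1.43 and 1.53 (limma adjusted p = 1.78e-06, 1.15e-07 and 4.21e-08). The median change of the list was -0.47, 0.05 and -0.59, beside 0.14, 0.31 and 0.10 for all genes.

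**Figure D5:**
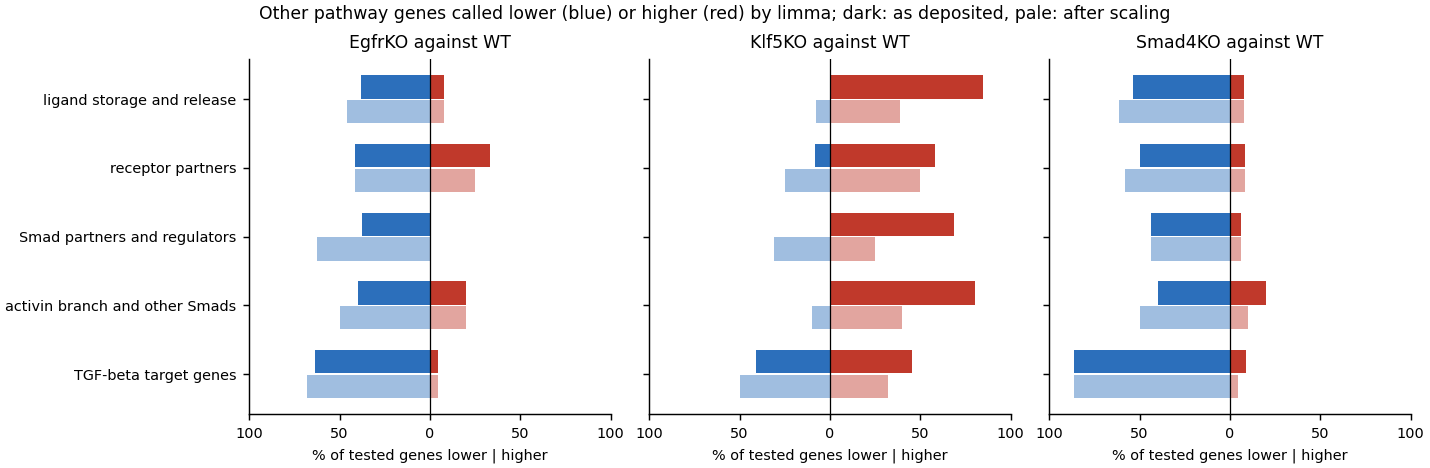
Share of the tested genes of each of 5 pathway lists called lower (blue, to the left) or higher (red, to the right) than WT by limma, in percent of the list (horizontal axis), for EgfrKO, Klf5KO and Smad4KO; dark bars are TPM as deposited and pale bars the scaled values. In Smad4KO 19 of 22 target genes are lower on both scales, and in Klf5KO the share called higher is smaller in the pale bars for all 5 lists.

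For the gene of each role with the widest range of genotype means, the genes with the most similar profile were looked up among 10334 genes with a mean TPM of at least 5. The measure was the Pearson correlation of log2(TPM + 1) over the 12 libraries, which fall into 4 genotypes and share their scaling, so the values are a description. Nearest to Tgfb3 were Tor4a (0.982), Ralgapa2 (0.980) and Armc10 (0.979). Nearest to Tgfbr1 were Macf1 (0.995), Ppp4r2 (0.995) and Kpna4 (0.994). Nearest to Smad4 were Adarb1 (0.995), Rab31 (0.994) and Mex3b (0.994). Adarb1, an RNA-editing adenosine deaminase, was at 11.6 TPM in WT, 8.91 in EgfrKO, 16.3 in Klf5KO and 3.09 in Smad4KO.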

How the data were processed

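Sorted tumour cells of 12 libraries in 4 groups of 3 were analysed. The deposited table gives gene-level TPM; per the submitters' processing notes it was made with Salmon (version not given) on mm10. TPM of each library sums to the same total, so read depth and its precision are unknown. Groups come from the genotype labels. limma 3.58.1 (R 4.3.3) was fitted to log2(TPM + 1) of 13662 of 24493 genes (1 TPM or more in at least 3 libraries), with a trend in the spread, 4 group means, 6 contrasts and Benjamini-Hochberg adjustment at 0.05. The script was tested on simulated data. Ratios and targeted genes were compared with two-sided exact permutation tests (scipy 1.17.1). The alternatives covered pseudocount, filter, scaling, spread, replicate block, marker covariates, minimum fold change and left-out libraries.

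The members and the lists were chosen with earlier results of these data known. Genes named are the 10 members, the 3 targeted genes, the 3 genes of each pathway list with the smallest adjusted p against WT, the 2 most abundant markers of each cell type list (tumour epithelial, fibroblast, macrophage, leukocyte, T and NK, endothelial, neutrophil), and the 3 genes with the highest correlation to the most variable member of each role. The markers Fap, Klrb1c, Kdr, Tek and Emcn are named outside this rule, after their values were seen. Promoter sequences were read from the RefSeq table only.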

Additional observations from a re-analysis of the deposited data

How the results depend on the processing

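Of 54 results (9 genes in 6 comparisons), 15 kept their direction and their side of the threshold under every alternative run. Another 13 took both signs among the alternatives: 7 that were called and reversed under at least 1, and 6 that were not called as deposited. In Klf5KO against WT, median-of-ratios scaling gave -0.22 for Tgfb1, -0.071 for Tgfbr2, -0.057 for Smad2, -0.12 for Smad3 and -0.015 for Smad4. Quantile normalization gave -0.013 for Tgfb1, -0.056 for Tgfbr2 and -0.068 for Smad2. With the fibroblast list as covariate Tgfbr2 was at -0.10 there and at -0.054 in Klf5KO against EgfrKO, and Tgfb3 was at 0.031 in Smad4KO against Klf5KO. Members called in EgfrKO against WT were 1 higher with a pseudocount of 0.1 or 0.5, the stricter filter (mean TPM of at least 5), robust variance or the replicate block, and 0 to 1 with a library left out; 0 were lower with a minimum log2 change of 0.5. In Klf5KO against WT 2 were higher with either scaling or the minimum change and 0 with the fibroblast covariate; 4 were lower with median-of-ratios, 2 with quantile, 0 with the fibroblast covariate or the minimum change, and 1 to 2 with a library left out (2 without WT replicate 2). In Smad4KO against WT 4 were lower with the minimum change. In Klf5KO against EgfrKO 4 were higher with the fibroblast covariate and 1 lower with either scaling. In Smad4KO against EgfrKO 2 were higher with the stricter filter, either scaling, robust variance, the replicate block, the fibroblast covariate or a fit of the 2 groups; 3 were lower with the fibroblast covariate, 1 with the minimum change, and 3 to 5 with a library left out. The count was 3 without EgfrKO replicate 1 or 2 or Smad4KO replicate 1 or 3. In Smad4KO against Klf5KO 0 were higher with the macrophage covariate or the minimum change, and 3 lower with the fibroblast covariate. The cause was not tested. Under the stricter filter Tgfb2 was not tested. Of 126 alternatives for the ratios 2 moved: with a pseudocount of 0.1 the change of Tgfbr3 to Tgfbr2 was -1.12 in EgfrKO and -2.20 in Smad4KO. Over all genes, median-of-ratios gave 2462 higher and 3029 lower in EgfrKO (4277 and 1643 as deposited) and 3357 and 3755 in Klf5KO (7536 and 1518). The fibroblast covariate gave 820 and 331 in Klf5KO. Same-numbered libraries did not pair: of 18 pairs 1 had a correlation of deviations over 0.1 (range -0.149 to 0.116), and 3 of 12 libraries were closest to their own number, so the block is given here only.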
